A study of Mus musculus with 12 samples.

Results

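Livers of mice that had undergone vertical sleeve gastrectomy (VSG) were compared with livers of sham-operated mice kept at the same body weight by food restriction (Sham-WM). The comparison took 8 of the 12 libraries of the series, 4 per group, and asked what the operation did to hepatic gene expression that an equal loss of weight did not. Group membership followed the number of the animal, which appears both in a library's name and in the title of its sample. These were animals 1F, 8F, 11F and 18F for VSG and 2F, 9F, 15F and 16F for Sham-WM. All were C57BL/6 mice in the labels (C57BL/6J in the study's methods), labelled as 21 weeks old, in which obesity had been induced by a high fat diet. In VSG most of the stomach was excluded, leaving a narrow sleeve. Both control groups were operated on as well, with the stomach handled but left whole, and Sham-WM mice then received less food. Animals 3F, 4F, 6F and 10F had the same sham surgery and ate freely (Sham-Ad lib), and their values are given as the background. The males of all 3 groups received the same analgesics and antibiotic, went back to the high fat diet and were killed after a short period without food once their weight was stable. Group differences therefore include the operation, its wound and healing, and the way food was taken, which cannot be told apart here. The labels give each library as a separate animal, and no pooling is mentioned.

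The liver makes fatty acids from citrate that leaves the mitochondrion, through acetyl-CoA and malonyl-CoA, and then lengthens, desaturates and stores them, and insulin and sugar raise the transcription of this chain of enzymes. The same organ secretes most plasma proteins and, when cytokines such as IL-6 and IL-1 reach it, shifts to acute phase proteins. Its resident macrophages, the Kupffer cells, line the sinusoids and take up particles that arrive from the gut by the portal vein. A circadian clock of interlocked activators and repressors runs in hepatocytes and follows the time of feeding as well as light.

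Library totals lay between 15122520 and 19384076 counts in the 8 libraries. Hepatocyte markers were abundant in every one of them, with summed levels of 81282 to 123305 CPM (counts scaled to library size with TMM factors) in VSG and 124415 to 155175 CPM in Sham-WM. Albumin alone took 6.29 ± 1.94% of counts in VSG and 10.8 ± 1.14% in Sham-WM (SD, n = 4 each), against 8.48 ± 0.757% in Sham-Ad lib. In whole liver, fewer cells of a type and less RNA per cell cannot be told apart. The albumin difference had a p of 0.0286 in a two-sided exact permutation test, the smallest that 4 against 4 libraries allow. A description field in the labels gives another group for 8 of the 12 libraries, and with that grouping no gene passed the adjusted threshold in edgeR, while 158 had an unadjusted p under 0.05. Library index numbers form 1 consecutive block per group, so anything that followed their order cannot be told apart from the treatment. VSG library 18F stood nearer to Sham-WM than the other VSG libraries did for acute phase and neutrophil genes, and its values are given singly.

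Expression differed widely between the groups. Of 13054 genes tested, 3509 (26.9%) passed an adjusted p of 0.05 in edgeR's quasi-likelihood test with Benjamini-Hochberg adjustment. In the livers of VSG mice, 1962 of them (15.0%) were higher and 1547 (11.9%) were lower than in Sham-WM. The higher genes had the larger changes: 305 had a log2 fold change of at least 2, while 42 of the lower genes had one of at most -2. The median log2 fold change was 0.96 among the higher and -0.64 among the lower genes, against 0.03 over all genes tested. Single libraries of the groups did not overlap for 3420 genes (26.2% of those tested), among them 2849 of the called genes. DESeq2 called 4089 genes. With 2 factors of unwanted variation estimated from replicates (RUVs), 524 genes were called. The paper's methods name a batch and report using RUVSeq with 2 factors against it, without saying which of its methods. The main fit holds no such factors, and the labels give no batch. Leaving out Sham-WM library 15F or 16F left 2234 and 2196 calls.

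**Figure D1:**
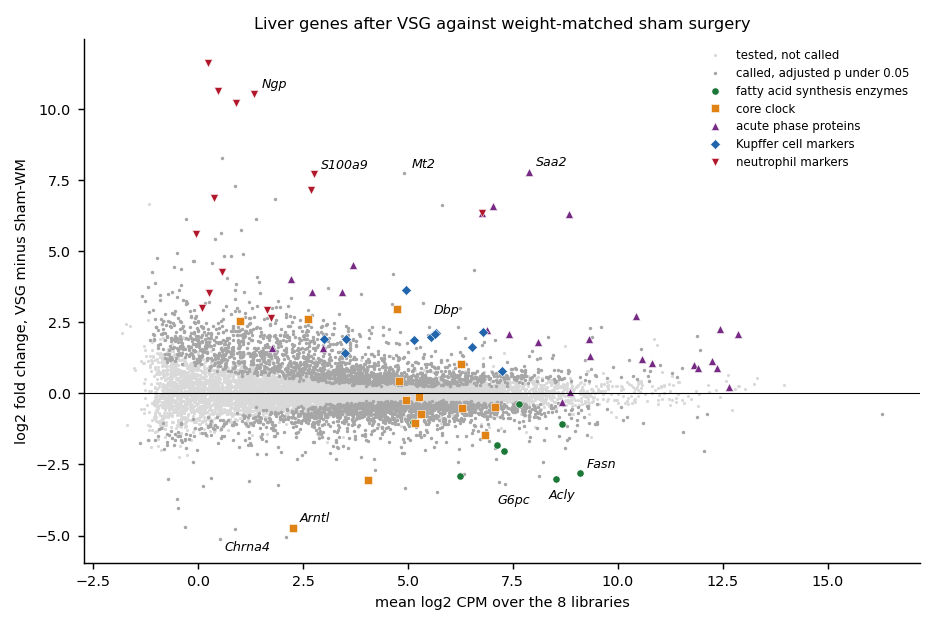
Each point is 1 of the 13054 genes tested, with the mean log2 CPM over the 8 libraries on the x axis and the log2 fold change (VSG minus Sham-WM) on the y axis; coloured symbols are the members of 5 gene lists. Kupffer cell and neutrophil genes and 26 of 27 acute phase genes lie above 0, and the fatty acid synthesis list lies below it. The heights of neutrophil genes with hardly any Sham-WM counts depend on the prior count of the fit.

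The genes are described below by lists of members with a shared role, each read against the 15.0% of all genes that were higher and the 11.9% that were lower. The plot of called members by list shows where the shares were furthest from these values. Fatty acid synthesis, desaturation, sterol synthesis and the core clock held the largest shares of lower genes among the lists plotted. Kupffer cell markers and acute phase proteins, whose tested members all had at least 10 counts in every library, had shares of higher genes far above 15.0%. For neutrophil and B and plasma cell markers the share is not read against 15.0%, since 6 of 14 and 3 of 16 members had fewer than 10 counts in every Sham-WM library and entered the test through the libraries in which they were high. The T and NK cell, chemokine and cell cycle lists each held 2 such members.

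**Figure D2:**
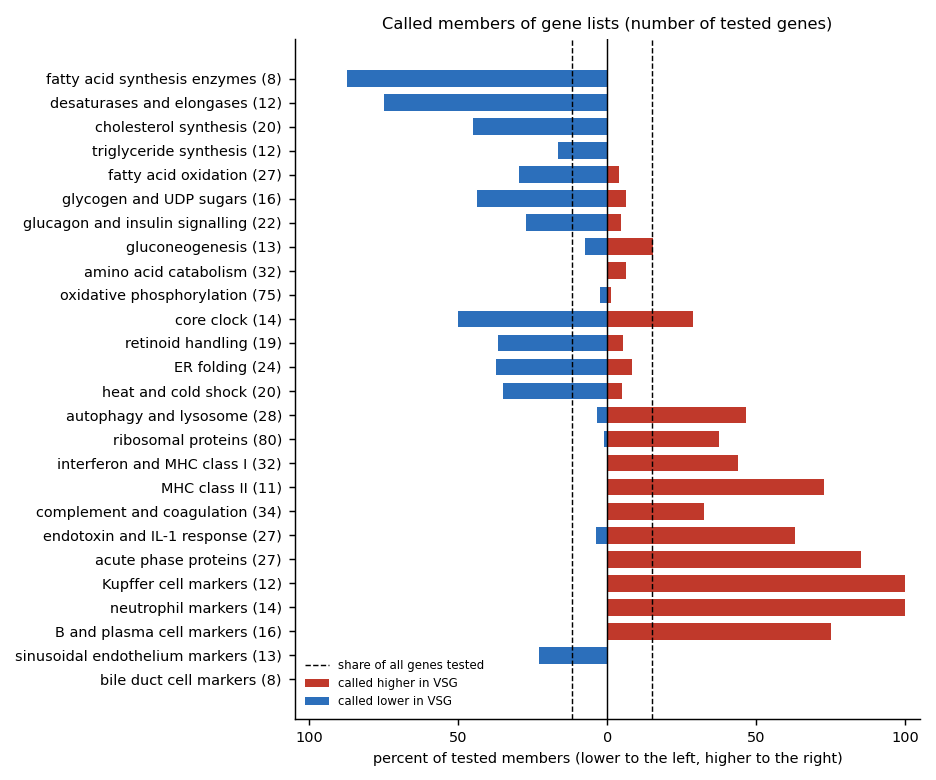
Bars give the percentage of a list's tested members that were called lower (left, blue) or higher (right, red) in VSG than in Sham-WM, with the number of tested members in brackets; dashed lines mark the shares among all genes tested, 11.9% lower and 15.0% higher. The 12 Kupffer cell markers were all higher and 7 of 8 members of the fatty acid synthesis list were lower. Among the 14 neutrophil markers, 6 had fewer than 10 counts in every Sham-WM library, so that bar is not a share to set against the dashed line.

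The enzymes that build fatty acids in the cytosol were far lower after VSG than after weight matching. The list of 8 genes also holds the citrate carrier Slc25a1 and the acyl-CoA synthetase genes Acsl3 and Acsl5. Of these 8, 7 were lower and 0 higher, with a median log2 fold change of -1.92. Acly, ATP citrate lyase, which makes cytosolic acetyl-CoA, had 120.0, 153, 101 and 151 CPM in the VSG libraries and 1118, 839, 1392 and 934 CPM in Sham-WM. The lowest Sham-WM liver held 5.48 times the highest VSG value (log2 fold change -3.03, SE 0.19, adjusted p = 3.7e-06 in edgeR). Fasn, the synthase itself (chromosome 11 from 120805846 to 120824547, mm10), had 199, 291, 126 and 242 CPM in VSG and 1937, 1147, 1893 and 1048 CPM in Sham-WM. All 4 VSG livers were below all Sham-WM livers, and the freely fed shams lay between them at 481, 575, 421 and 482 CPM (log2 fold change -2.81, SE 0.27, adjusted p = 6.14e-05 for VSG against Sham-WM). Acacb, the acetyl-CoA carboxylase at the mitochondrial surface, had 28.7, 36.1, 16.6 and 33.0 CPM in VSG and 218, 275, 209 and 155 CPM in Sham-WM, again without overlap (log2 fold change -2.90, SE 0.25, adjusted p = 3.15e-05). Its cytosolic partner Acaca fell by a log2 fold change of -1.80 and Acss2, which makes acetyl-CoA from acetate, by one of -2.04. Slc25a1, the mitochondrial citrate carrier, had a log2 fold change of -0.35 and did not pass (adjusted p = 0.0639 in edgeR). Summed over the list, expression was 916, 1198, 887 and 1087 CPM in the VSG livers and 4834, 4143, 4829 and 3276 CPM in Sham-WM. The number of lower enzymes was 7 or 8 in each fit that left out 1 library and 6 with RUVs factors.

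Of the 8 fatty acid synthesis promoters taken from RefSeq (GRCm38.p6, 250 bases before the start), 6 hold CCAAT on either strand, the letters that NF-Y binds beside sterol response elements. These were Acss2, Acacb, Fasn, Slc25a1, Acsl3 and Acsl5. The same letters stand in 36.6% of the 10111 promoters searched, in 35.1% of those of the higher genes and 37.7% of those of the lower genes. The Fasn window, chr11:120824548-120824797 on the minus strand, is shown because the enzyme stands for the pathway and its window holds 3 copies (capitals, a pair of them overlapping on opposite strands), as 4.54% of all windows hold at least 3.
Fasn: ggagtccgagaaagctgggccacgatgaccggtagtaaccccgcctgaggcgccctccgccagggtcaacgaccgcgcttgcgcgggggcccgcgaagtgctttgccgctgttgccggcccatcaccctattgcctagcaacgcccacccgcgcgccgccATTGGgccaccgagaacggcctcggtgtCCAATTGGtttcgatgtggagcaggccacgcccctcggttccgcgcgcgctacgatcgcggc

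Desaturases and elongases, which shape the new fatty acids, followed the same direction. Of 12 measured, 9 were lower and none higher, with a median log2 fold change of -1.05. Elovl6, which lengthens palmitate to stearate, had 42.5, 53.3, 43.8 and 65.6 CPM in VSG and 354, 247, 773 and 422 CPM in Sham-WM, and every VSG value lay below every Sham-WM value (log2 fold change -3.13, SE 0.30, adjusted p = 5.85e-05 in edgeR). Elovl3, an elongase of very long chains, was at 30.8 ± 3.41 CPM in VSG and 219 ± 76.9 CPM in Sham-WM (SD, n = 4). Scd1, the delta-9 desaturase, had 1556, 3488, 1227 and 2688 CPM in VSG and 8363, 6691, 13587 and 7591 CPM in Sham-WM, with a fold change of 4.04 in favour of Sham-WM. Fads2, the first desaturase of the polyunsaturated series, fell by a log2 fold change of -1.63. Scd2, a desaturase of early life, had a log2 fold change of 0.27, with Elovl1 and Hacd3 the other members that did not pass. With RUVs factors 3 of the 12 were called.

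Of 14 regulators of the pathway, 7 were lower and 3, Nr1d1, Usf1 and Nr1h2, higher (log2 fold changes 2.98, 0.62 and 0.32). Srebf1, which encodes the transcription factor SREBP-1, had 256, 351, 289 and 285 CPM in VSG and 619, 528, 579 and 382 CPM in Sham-WM. The groups did not overlap, though the change was far smaller than that of the enzymes (log2 fold change -0.84, SE 0.16, adjusted p = 0.00314 in edgeR). Mlxipl, which encodes the sugar-sensing factor ChREBP, did not pass, at a log2 fold change of -0.32 (adjusted p = 0.195). Thrsp, a nuclear protein that rises with lipogenesis, fell by a log2 fold change of -1.93, and Insig1 and Insig2, the anchors that hold SREBP in the endoplasmic reticulum, by -1.64 and -1.68. Pnpla3, a lipid droplet protein and a target of SREBP-1, had 8, 6, 4 and 3 counts in the VSG libraries against 195, 93, 291 and 101 in Sham-WM, and was chosen here after its values were seen. Its freely fed counts were 9, 15, 5 and 1, on the side of VSG.

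Enzymes that supply NADPH moved with synthesis. Me1, malic enzyme, had 62.6, 45.2, 70.3 and 71.3 CPM in VSG and 318, 293, 346 and 273 CPM in Sham-WM, with no overlap (log2 fold change -2.30, SE 0.31, adjusted p = 0.000678 in edgeR). Pgd, Tkt and Idh1 were also lower, at log2 fold changes of -0.86, -0.72 and -0.58. H6pd, the enzyme of the endoplasmic reticulum, was the 1 of 8 members that was higher. G6pdx, which opens the pentose phosphate pathway, did not pass, at 0.26.

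Triglyceride assembly and storage showed fewer differences. Of 12 assembly enzymes, Gpam, which attaches the first fatty acid to glycerol phosphate, and Agpat2, which attaches the next, were lower (log2 fold changes -1.93 and -0.73), and none was higher. Gpam had 68.1, 116, 26.4 and 87.1 CPM in VSG and 364, 275, 286 and 215 CPM in Sham-WM, so the groups were apart. Dgat2 and Dgat1, which close the triglyceride, had log2 fold changes of 0.02 and 0.03 and neither passed. Among 17 lipid droplet genes, Plin3, Lipe and Pnpla2, the latter pair being lipases, were higher and Plin5 was lower. Pnpla2 had 72.9, 83.1, 84.4 and 100.4 CPM in VSG and 39.6, 56.9, 40.8 and 40.4 CPM in Sham-WM, where animal 9F stood above the other 3. Pparg and Cd36, of 12 genes tied to PPAR gamma and steatosis, had log2 fold changes of -0.05 and -0.06. Only Lpl, lipoprotein lipase, passed in that list (1.45 (adjusted p = 0.0159) in edgeR).

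Sterol synthesis was lower as well. Of 20 enzymes, 9 fell and none rose, and the median log2 fold change was -1.09. Pmvk, phosphomevalonate kinase, had 19.7, 18.6, 10.2 and 11.9 CPM in VSG and 75.3, 88.4, 45.3 and 47.4 CPM in Sham-WM, without overlap (log2 fold change -2.08, SE 0.32, adjusted p = 0.00122 in edgeR). Lss and Hsd17b7, further down the pathway, fell by log2 fold changes of -1.71 and -1.58. Of 14 cholesterol uptake and efflux genes 2 were lower and 3 higher. Abcg1, Abcg8 and Scarb1, which carry cholesterol across membranes, were the higher ones (1.04, 0.96 and 0.57). Of 17 genes of apolipoproteins and VLDL assembly, Apoa5, Mttp, which loads lipid onto apolipoprotein B, and Tm6sf2 were lower and none was higher. Apoa5 had 738, 960.0, 964 and 926 CPM in VSG and 1699, 1390.4, 1582 and 1670.2 CPM in Sham-WM. The count of lower sterol enzymes fell to 6 without VSG library 11F and to 2 with RUVs factors.

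**Figure D3:**
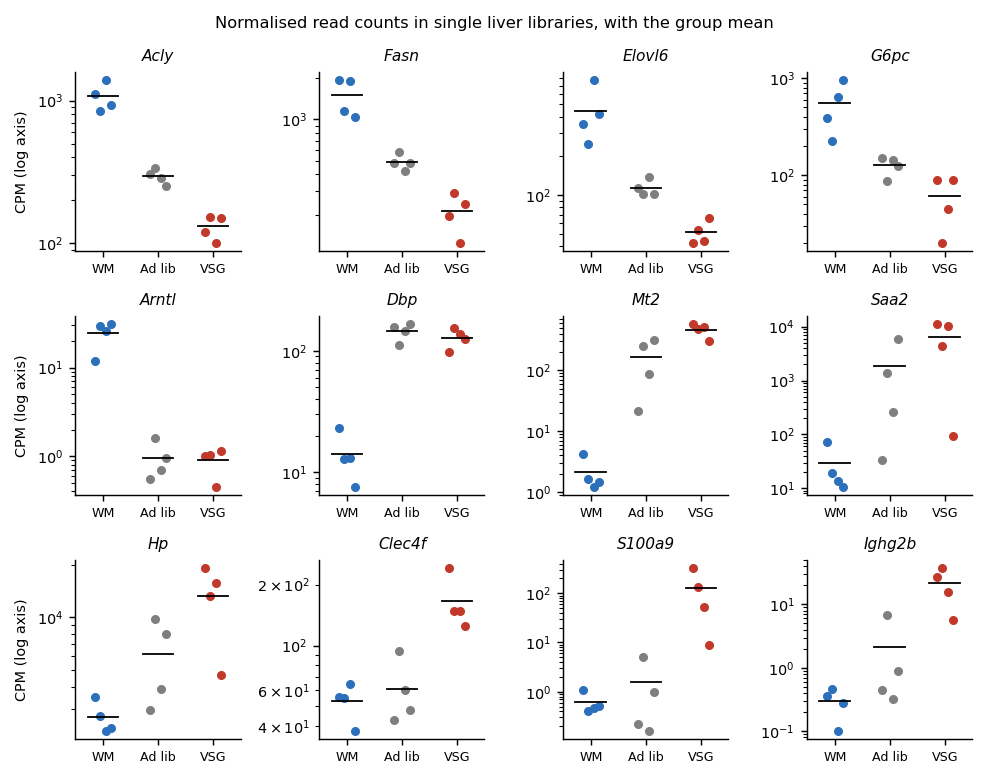
Each point is 1 library, with CPM on a log axis, for 12 genes in Sham-WM (blue), Sham-Ad lib (grey) and VSG (red), and lines are group means. In the VSG livers Acly, Fasn, Elovl6, G6pc and Arntl lie below all Sham-WM livers, the other 7 genes lie above them, and library 18F is the lowest VSG point of Saa2, Hp, S100a9 and Ighg2b.

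Fat burning did not move against fat synthesis as a group. Of 27 oxidation genes, 8 were lower and 1, the peroxisomal thiolase Acaa1a, was higher. Cpt1a, the carnitine transferase that admits fatty acids to mitochondria, had 404, 656, 454 and 527 CPM in VSG and 492, 603, 393 and 419 CPM in Sham-WM. The groups overlapped and the gene did not pass (log2 fold change 0.10 (adjusted p = 0.699) in edgeR), while freely fed shams had 877, 731, 866 and 739.9 CPM. Among the lower members were known targets of PPAR alpha. Cyp4a14, an omega-hydroxylase, had 111.4, 32.3, 72.4 and 254 CPM in VSG and 599.9, 814, 869 and 1257 CPM in Sham-WM without overlap (log2 fold change -2.91, SE 0.70, adjusted p = 0.00972). Pdk4, which shuts pyruvate out of oxidation, had 1.73, 2.09, 2.26 and 3.07 CPM in VSG and 6.88, 12.03, 12.96 and 13.5 CPM in Sham-WM, again apart (log2 fold change -2.30, SE 0.25, adjusted p = 0.000148). Acot1 and Ehhadh fell by log2 fold changes of -1.49 and -0.92. Ketone synthesis showed 1 called gene of 6, the transporter Slc16a1 (-1.01). The count of called oxidation genes dropped from 9 to 5 without VSG library 1F or without Sham-WM library 16F and to 2 with RUVs factors.

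Of 13 glucose output genes, Pck2 and Sdsl were higher and G6pc alone was lower. G6pc, glucose-6-phosphatase, the last step of glucose release, had 88.8, 20.1, 44.7 and 89.9 CPM in VSG and 385, 227, 642 and 957 CPM in Sham-WM. The groups did not overlap (log2 fold change -3.18, SE 0.49, adjusted p = 0.00126 in edgeR). The freely fed shams had 149.8, 87.0, 144 and 126 CPM, below every Sham-WM liver, with the lowest of them inside the VSG range. Pck1, the other classical enzyme of gluconeogenesis, had 2245, 1087, 966 and 3146 CPM in VSG and 1594, 383, 1712 and 2225 CPM in Sham-WM, with wide spread in both groups and no call (0.33 (adjusted p = 0.661)). The list held 1 call without VSG library 8F or without Sham-WM library 15F or 16F.

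Glycogen handling moved together in several members: of 16, 7 were lower and Gyg, the glycogenin that primes the polymer, was higher (1.11 (adjusted p = 0.00283) in edgeR). Ppp1r3b, which brings phosphatase 1 to glycogen and favours storage, had 127, 137, 102 and 156 CPM in VSG and 791, 739, 595 and 666 CPM in Sham-WM. The lowest Sham-WM liver held 3.81 times the highest VSG value (log2 fold change -2.42, SE 0.17, adjusted p = 6.39e-06). Ppp1r3c, a relative of Ppp1r3b, fell by a log2 fold change of -1.40.

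Of 21 genes of sugar uptake and glycolysis, 6 were lower and Slc2a5 and Slc2a9 were higher. Pklr, the liver pyruvate kinase and a target of ChREBP, had 88.7, 167, 158 and 136 CPM in VSG and 366, 336, 636 and 401 CPM in Sham-WM, without overlap (log2 fold change -1.66, SE 0.29, adjusted p = 0.00217 in edgeR). Tkfc, which phosphorylates glyceraldehyde from fructose, fell by -1.31. It overlaps Ddb1 on the other strand, whose counts were 0.393 of its own. Slc2a5, the fructose transporter GLUT5, was higher by 1.54.

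Of 22 genes that carry glucagon and insulin signals, 6 were lower and Trib3, an inhibitor of AKT, was higher (1.89 (adjusted p = 0.00136) in edgeR). Gcgr, the glucagon receptor, had 209.7, 195, 266 and 204 CPM in VSG and 179, 183, 194 and 176 CPM in Sham-WM and did not pass (log2 fold change 0.26 (adjusted p = 0.0947)). Irs1, an insulin receptor substrate, had 3.11, 4.70, 1.51 and 6.996 CPM in VSG and 9.17, 9.06, 14.4 and 21.2 CPM in Sham-WM, with no overlap (log2 fold change -1.70, SE 0.39, adjusted p = 0.00829). Crem and Pde3b, which damp cAMP signals, fell by log2 fold changes of -0.79 and -0.66. Igfbp1, a target of FOXO1 that insulin lowers, had a log2 fold change of -0.32 and did not pass. Called members numbered 4 without Sham-WM library 15F or 16F, and 1 with RUVs factors.

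Of 12 urea cycle genes, Cps1, which fixes ammonia, and the carriers Slc25a15 and Slc25a13 were lower (log2 fold changes -0.83, -0.72 and -0.51) and none was higher. Summed over the list, expression was 10012, 13808, 13396 and 14829.7 CPM in the VSG livers and 16708, 17896, 15397 and 17319.7 CPM in Sham-WM, so the groups did not overlap. Without VSG library 11F 5 of the genes were called, and none was with RUVs factors. Of 32 amino acid breakdown genes 2 were higher, Agxt and Cdo1, and none was lower.

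Bile acid genes showed no common direction. Cyp7a1, the rate-limiting enzyme of bile acid synthesis, had 109.6, 98.1, 227 and 223 CPM in VSG and 110.1, 147, 169.5 and 198 CPM in Sham-WM. The groups overlapped throughout (0.07 (adjusted p = 0.893) for the log2 fold change and edgeR's test). Hsd3b7 and Amacr were higher and Akr1d1 was lower of 13 synthesis genes, at log2 fold changes of 0.52, 0.42 and -0.84. Fgfr4, the hepatic receptor for the gut hormone FGF15, and the transporter Slc10a2 were lower of 16 genes of sensing and transport (-0.39 and -0.77). The calls on Hsd3b7 and Fgfr4 held in 6 and 5 of the 12 fits that each left out 1 library.

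Core clock genes differed in both directions. Of 14 core clock genes, 7 were lower and 4 higher in VSG. Arntl, which encodes the activator BMAL1 (chromosome 7 from 113207465 to 113314126, mm10), had 1.02, 1.02, 0.452 and 1.14 CPM in VSG and 11.8, 29.7, 25.9 and 31.1 CPM in Sham-WM. The lowest Sham-WM value was 10.4 times the highest VSG value, and freely fed shams had 0.558, 1.61, 0.703 and 0.941 CPM, at the level of VSG (log2 fold change -4.72, SE 0.38, adjusted p = 2.11e-05 for VSG against Sham-WM in edgeR). Nr1d1, which encodes REV-ERB alpha, the repressor of Arntl, had 85.6, 113.6, 36.5 and 77.5 CPM in VSG and 11.8, 8.09, 13.3 and 6.58 CPM in Sham-WM, the opposite order and again without overlap (log2 fold change 2.98, SE 0.33, adjusted p = 0.000157). Dbp, a PAR bZIP factor driven by the clock, had 98.5, 153, 137 and 125 CPM in VSG, 23.1, 12.7, 13.01 and 7.598 CPM in Sham-WM and 156, 110.9, 146 and 166 CPM in Sham-Ad lib (log2 fold change 3.18, SE 0.28, adjusted p = 3.15e-05). VSG and freely fed livers shared a range for Dbp, and Sham-WM lay below both. Cry1, a repressor that peaks late, had 2.81, 4.14, 11.1 and 6.54 CPM in VSG and 35.1, 49.1, 56.0 and 58.4 CPM in Sham-WM (log2 fold change -3.03, SE 0.39, adjusted p = 0.000417). Ciart, a repressor tied to Nr1d1 in phase, rose by a log2 fold change of 2.63, and Per2 fell by -0.72, a call kept in 8 of 12 fits that left out 1 library. Among outputs, Nfil3, which opposes Dbp at the same sites, and Leo1 fell (-1.26 and -1.47) and Cys1 rose (1.20). Nr1d1 and Dbp overlap Thra and Sphk2 on the other strand, whose counts were 0.241 and 0.598 of theirs. Core clock calls numbered 8 to 11 without 1 library and 7 with RUVs factors. Neither the hour of killing nor the hours of feeding of each animal is in the labels, so their part in these values was not tested.

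E-boxes (CACGTG on either strand) are the letters that CLOCK and BMAL1 bind. Of 11 core clock promoters found in RefSeq, 4 hold one, in Per1, Cry1, Ciart and Bhlhe41, against 8.45% of all promoters searched, 8.88% of those of higher and 8.23% of those of lower genes. Cry1 and Ciart are shown, chosen after their values were seen, because their transcripts moved in opposite directions while both windows hold the letters (capitals). The Cry1 window is chr10:85185065-85185304 and the Ciart window chr3:95882252-95882478, both on the minus strand and with bases that GENCODE gives as exon left out. Ciart holds 3 copies, as 0.119% of windows hold at least 3.
Cry1: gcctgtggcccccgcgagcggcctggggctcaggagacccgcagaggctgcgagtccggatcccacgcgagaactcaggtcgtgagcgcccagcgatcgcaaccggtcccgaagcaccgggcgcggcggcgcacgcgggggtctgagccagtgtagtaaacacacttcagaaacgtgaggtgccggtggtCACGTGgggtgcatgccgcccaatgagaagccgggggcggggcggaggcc
Ciart: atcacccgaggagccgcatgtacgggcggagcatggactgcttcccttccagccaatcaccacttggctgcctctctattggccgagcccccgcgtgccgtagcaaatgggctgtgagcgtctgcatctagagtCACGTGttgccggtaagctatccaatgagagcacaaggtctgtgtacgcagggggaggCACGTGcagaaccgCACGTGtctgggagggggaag

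Metallothioneins, small proteins that bind zinc and copper, were both among the 15 named genes with the largest rise. Mt2 had 575, 479.8, 517 and 297 CPM in VSG and 4.28, 1.64, 1.22 and 1.46 CPM in Sham-WM, and Mt1 had 698, 632, 672 and 372 CPM in VSG and 9.38, 7.22, 3.11 and 3.88 CPM in Sham-WM. The lowest VSG liver held 69.5 times the highest Sham-WM value for Mt2 and 39.7 times for Mt1 (log2 fold change 7.75, SE 0.80, adjusted p = 9.89e-05 for Mt2 and log2 fold change 6.65, SE 0.68, adjusted p = 9.89e-05 for Mt1 in edgeR). Freely fed livers were uneven, at 21.7, 247, 87.9 and 313 CPM of Mt2. Slc30a10, an exporter of manganese and zinc, had 17.6, 16.5, 11.8 and 11.5 CPM in VSG and 45.9, 50.4, 68.3 and 78.9 CPM in Sham-WM (log2 fold change -2.08, SE 0.21, adjusted p = 9.24e-05), and Slc39a8, an importer, was lower by -0.36. The Slc39a8 call held in 4 of 12 fits that left out 1 library. Of 16 genes of the glucocorticoid response, a list that also holds Mt2, 3 were higher, Mt2, Lcn2 and Klf9 (log2 fold changes 7.75, 6.35 and 0.50), and Dusp1 was lower (-1.51). Lcn2 is also in the acute phase and neutrophil lists, and the Klf9 call held in 2 of 12 fits that left out 1 library. Dusp1 overlaps Ergic1 on the other strand, whose counts were 4.48 times its own. Fkbp5 did not pass (0.55 (adjusted p = 0.113) in edgeR).

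Of 24 genes of folding in the endoplasmic reticulum, 9 were lower and 2 higher. Hspa5, its main chaperone, had 531, 416, 352 and 510.2 CPM in VSG and 982, 752, 900.2 and 1096 CPM in Sham-WM, with no overlap (log2 fold change -1.04, SE 0.19, adjusted p = 0.00253 in edgeR). Hyou1, a cochaperone, fell by -1.60. Derl3, a channel for discarded proteins that plasma cells also express, rose by 3.52, with 6.21, 34.3, 6.85 and 1.82 CPM in VSG and 1.99, 0.870, 0.408 and 1.01 CPM in Sham-WM. Of 20 heat and cold shock genes, 7 were lower, led by Hsp90aa1 (-1.22), Stip1 (-1.11) and Hsph1 (-1.07), and Hspb8 was higher.

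Of 28 autophagy and lysosome genes, 13 were higher and Lipa was lower. Gabarapl1, which sits on the growing autophagosome, had 320.1, 395, 415 and 565 CPM in VSG and 144, 184, 153 and 121 CPM in Sham-WM, and the freely fed shams had 490.0, 352, 466 and 389 CPM, within the VSG range (log2 fold change 1.49, SE 0.18, adjusted p = 0.000315 in edgeR). Map1lc3b, its relative, rose by 1.04, and the lysosomal enzyme Neu1 by 0.89. Several lysosomal members are abundant in macrophages. Summed Kupffer cell markers were 871 to 2082 CPM in VSG and 292 to 456 CPM in Sham-WM, all 12 of them higher, and their part in these values was not tested.

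Retinoid genes were lower in 7 of 19 members and higher in 1. Cyp26b1, which breaks down retinoic acid and is induced by it, had 1.55, 0.102, 2.34 and 2.96 CPM in VSG and 5.55, 2.97, 32.1 and 23.9 CPM in Sham-WM. The groups did not overlap, although the highest Sham-WM value was 10.8 times the lowest (log2 fold change -3.24, SE 0.86, adjusted p = 0.0157 in edgeR). Lrat, which stores retinol as ester in stellate cells, had 11.5, 10.3, 9.57 and 14.2 CPM in VSG and 22.5, 20.3, 43.7 and 28.1 CPM in Sham-WM (log2 fold change -1.33, SE 0.22, adjusted p = 0.00174). Rdh11, a retinol dehydrogenase, fell by -1.56. Cyp26a1 overlapped between groups and kept its call in 3 of 12 fits that left out 1 library. The list held 3 calls without VSG library 1F or without Sham-WM library 15F, and none with RUVs factors.

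Acute phase proteins were higher in nearly every member. Of 27 measured, 23 were higher and none lower, with a median log2 fold change of 1.91. Saa2, a serum amyloid A protein that rides on HDL (chromosome 7 from 46751790 to 46754313, mm10), had 11203, 4327, 10489.7 and 92.6 CPM in VSG and 73.2, 19.3, 13.4 and 10.7 CPM in Sham-WM. Animals 1F, 8F and 11F were far above every Sham-WM liver, whereas 18F lay just above the highest of them (log2 fold change 7.81, SE 1.69, adjusted p = 0.00611 in edgeR). Saa1, whose sequence is nearly that of Saa2, so that reads may have been split between them, had 11973, 5208, 11829.5 and 245 CPM in VSG and 252, 53.6, 33.7 and 24.2 CPM in Sham-WM, and here 18F fell inside the Sham-WM range. Hp, haptoglobin, which binds free haemoglobin, had 19102, 13183, 15656 and 4688 CPM in VSG and 3523, 2728, 2252 and 2332 CPM in Sham-WM, all VSG livers being higher (log2 fold change 2.28, SE 0.44, adjusted p = 0.00317). Orm2, an orosomucoid with close paralogs, had 3131, 2333, 1637 and 72.6 CPM in VSG and 18.9, 9.98, 17.7 and 27.0 CPM in Sham-WM (log2 fold change 6.61, SE 1.30, adjusted p = 0.00365), and Orm1 rose by 2.73. Hpx, hemopexin, which binds free haem, rose by 2.09. Lcn2, which starves bacteria of iron and is made by hepatocytes and neutrophils alike, had 3527, 1126, 1316 and 99.8 CPM in VSG and 46.0, 11.98, 5.92 and 10.5 CPM in Sham-WM (log2 fold change 6.35, SE 1.25, adjusted p = 0.00367).

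The fibrinogen chains rose in step by less: Fga, Fgb and Fgg had log2 fold changes of 0.91, 1.15 and 0.99. Crp, the main acute phase protein of humans but not of mice, had 584, 412, 428 and 465 CPM in VSG and 461, 460.1, 445 and 458 CPM in Sham-WM and did not pass (0.05 (adjusted p = 0.778) in edgeR). Itih4, Serpina3m and Serpina3k were the other members without a call. Freely fed shams were uneven, with 32.9, 1392, 260.0 and 5851 CPM of Saa2 in animals 3F, 4F, 6F and 10F. Called members numbered 19 to 24 without 1 library but 1 with RUVs factors, and leaving out VSG library 18F gave 24.

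STAT elements (TTCNNNGAA, read on both strands) are the letters that STAT3, the messenger of IL-6, recognises. Of 21 acute phase promoters found, 7 hold one, in Fga, Fgb, Apcs, Itih4, Serpina3g, Serpina3f and Steap4, while 6.15% of all promoters searched do, 6.40% of those of higher and 5.24% of those of lower genes. Fgb and Fga lie side by side on chromosome 3 and are transcribed on opposite strands, and both are shown with the element in capitals, chosen after the values were seen. The Fgb window is chr3:83049864-83050113 on the minus strand and the Fga window, shortened where an exon begins, is chr3:83025903-83026075 on the plus strand.
Fgb: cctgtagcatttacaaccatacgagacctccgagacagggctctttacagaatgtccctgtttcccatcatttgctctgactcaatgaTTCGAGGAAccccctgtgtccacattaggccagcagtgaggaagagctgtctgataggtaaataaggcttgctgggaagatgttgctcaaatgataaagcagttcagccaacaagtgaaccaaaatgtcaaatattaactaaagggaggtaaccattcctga
Fga: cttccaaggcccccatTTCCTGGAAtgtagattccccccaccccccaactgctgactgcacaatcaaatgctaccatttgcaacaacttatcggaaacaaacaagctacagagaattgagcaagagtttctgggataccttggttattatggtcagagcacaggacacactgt

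Of 17 proteins that usually fall in the acute phase or are steadily secreted, Alb, albumin, was lower, with 56632, 52478, 55698 and 91193 CPM in VSG and 91380.1, 104635, 106882 and 121430.0 CPM in Sham-WM, animal 18F lying level with the lowest Sham-WM liver (log2 fold change -0.73, SE 0.22, adjusted p = 0.0294 in edgeR). The albumin call held in 6 of 12 fits that left out 1 library. Trf, transferrin, Fetub and Kng1 were higher (1.18, 0.86 and 0.71), and Ttr, transthyretin, did not pass (-0.13).

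Genes of endotoxin sensing and the IL-1 pathway were higher in most members, and Cd14, Lbp and Il1rn among them are also in the acute phase list. Of 27 such genes, 17 were higher and Irak2 was lower, at a median log2 fold change of 1.29. Cd14, the coreceptor that hands endotoxin to TLR4, had 58.5, 10.2, 12.4 and 6.83 CPM in VSG and 1.38, 1.08, 1.68 and 1.18 CPM in Sham-WM. All VSG values were above all Sham-WM values and animal 1F was far above the rest (log2 fold change 4.04, SE 0.67, adjusted p = 0.00173 in edgeR). Tlr2, the receptor of bacterial lipoproteins, had 19.5, 13.8, 8.13 and 5.57 CPM in VSG and 2.85, 1.38, 1.43 and 1.13 CPM in Sham-WM (log2 fold change 2.79, SE 0.47, adjusted p = 0.00191). Irak3, a brake on these receptors, and Il1rn, the IL-1 receptor antagonist, rose by 2.64 and 3.56. Irak3 overlaps Tmbim4 on the other strand, whose counts were 15.0 times its own. Il1b itself, chosen after its values were seen, rose by 2.91 from 0.708 to 5.43 CPM. Tlr4, Nfkb1 and Traf6 had log2 fold changes of 0.89, -0.06 and -0.26 and did not pass. Several members are expressed in macrophages and neutrophils as well as hepatocytes, and how the difference divides among these cells cannot be told apart in whole liver.

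In a list of the IL-6 receptor and STAT3 feedback, 5 of 16 genes were higher. Socs3, the feedback inhibitor of STAT3, had 17.3, 23.7, 27.5 and 9.04 CPM in VSG and 4.08, 5.32, 8.72 and 4.39 CPM in Sham-WM (log2 fold change 1.78, SE 0.58, adjusted p = 0.0365 in edgeR), a call kept in 6 of 12 fits that left out 1 library and of opposite sign with RUVs factors. Fgl1, a liver protein induced by IL-6, and Cebpd, a transcription factor of the acute phase, rose by 2.34 and 1.64. Stat3 did not pass (0.19).

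Of 20 iron genes, 6 were higher and 2 lower. Hamp, hepcidin, the hormone that IL-6 induces and that blocks iron release, had 180.2, 623, 111.6 and 33.8 CPM in VSG and 426, 248, 410.5 and 569.7 CPM in Sham-WM and did not pass (-0.80 (adjusted p = 0.336) in edgeR). Tfrc, the transferrin receptor, had 24.1, 17.7, 30.3 and 17.7 CPM in VSG and 49.2, 67.5, 106.3 and 129 CPM in Sham-WM and was lower without overlap (log2 fold change -1.97, SE 0.34, adjusted p = 0.00194). Hmox1, haem oxygenase, which splits haem and is strong in Kupffer cells, rose by 1.78. Bmp6, the endothelial signal for hepcidin, fell by -1.01. It overlaps Txndc5 on the other strand, whose counts were 80.5 times its own, so its value is uncertain.

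Of 34 complement and coagulation genes, 11 were higher and none lower, with 7 calls left without Sham-WM library 16F and 0 with RUVs factors. C9, the last component of the membrane attack complex, rose by 1.18 (adjusted p = 0.00373) on the log2 scale in edgeR. The clotting factors F2, F7, F9 and F10 had log2 fold changes between 0.15 and 0.33 and did not pass.

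Antigen presentation and interferon genes were higher in part. Of 11 MHC class II genes, 8 were higher and none lower, at a median of 1.31. H2-DMa and H2-DMb1, which load peptide, rose by 1.52 and 1.68, and Ctss, the protease that trims the invariant chain, had 147, 86.9, 74.4 and 66.1 CPM in VSG and 31.2, 17.9, 24.6 and 17.1 CPM in Sham-WM (log2 fold change 2.04, SE 0.37, adjusted p = 0.00242 in edgeR). H2-DMa overlaps Brd2 on the other strand, whose counts were 19.6 times its own. H2-Ab1, a class II chain itself, had 57.7, 50.5, 40.2 and 28.5 CPM in VSG and 27.1, 12.3, 18.6 and 14.0 CPM in Sham-WM, where the highest Sham-WM liver nearly met the lowest VSG one. Calls fell to 3 without VSG library 1F or Sham-WM library 16F, and class II genes are carried by the macrophages and B cells whose markers were also higher, whose part was not tested. Of 32 interferon and class I genes, 14 were higher, among them Irf7, Oas1a and Psmb9 (1.10, 1.30 and 1.33), and none was lower. That count was 8 without Sham-WM library 15F or 16F. Psmb9 overlaps Tap1 on the other strand, whose counts were 1.42 times its own. Of 24 chemokine genes 11 were higher and 2, Cxcl12 and Ackr3, were lower. Among the 24, 2 had fewer than 10 counts in every Sham-WM library. Only 12 had at least 10 counts in every library, and 7 of these were called higher in the fit with that minimum. Cxcl13, which draws B cells, had 50.3, 6.38, 15.7 and 1.82 CPM in VSG and 0.662, 0.154, 0.357 and 0.169 CPM in Sham-WM (log2 fold change 5.75, SE 1.10, adjusted p = 0.00319). Cxcl13 had few counts in Sham-WM and entered the test mainly through the libraries in which it was high, so its adjusted p is not read as support. Cxcl1, which draws neutrophils, had 29.4, 58.9, 28.02 and 13.9 CPM in VSG and 3.47, 2.15, 1.94 and 2.48 CPM in Sham-WM.

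Each of the 12 Kupffer cell markers was higher, at a median log2 fold change of 1.95, and their summed level was 2082, 1150.2, 1041 and 871 CPM in VSG, 391, 347, 456 and 292 CPM in Sham-WM and 393, 772, 433 and 386 CPM in Sham-Ad lib. Clec4f, a lectin found on Kupffer cells alone in mouse liver, had 242, 148, 148 and 124 CPM in VSG and 55.4, 55.0, 64.7 and 38.0 CPM in Sham-WM, apart in all livers (log2 fold change 1.63, SE 0.26, adjusted p = 0.00155 in edgeR). Marco, a scavenger receptor, had 261, 109.6, 96.0 and 32.8 CPM in VSG and 12.3, 12.6, 9.79 and 5.57 CPM in Sham-WM (log2 fold change 3.63, SE 0.79, adjusted p = 0.00609), and Cd5l and the complement chain C1qa rose by 2.17 and 2.05. All 12 kept their calls in every fit that left out 1 library, and 3 kept them with RUVs factors. Of 13 markers of recruited macrophages 6 were higher, with summed levels of 101 to 227 CPM in VSG and 45.6 to 70.6 CPM in Sham-WM. Itgam, an integrin of myeloid cells, had 22.2, 12.8, 3.31 and 3.01 CPM in VSG and 1.27, 0.819, 1.68 and 1.35 CPM in Sham-WM (log2 fold change 3.01, SE 0.70, adjusted p = 0.0086).

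**Figure D4:**
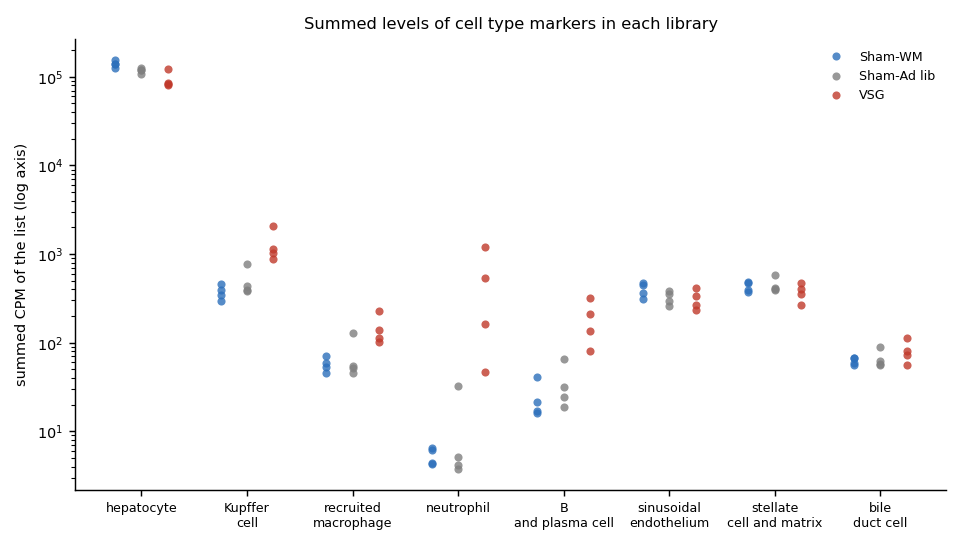
Each point is the summed CPM of 1 marker list in 1 library, on a log axis, for Sham-WM (blue), Sham-Ad lib (grey) and VSG (red), with Lcn2 left out of the neutrophil list. Kupffer cell, neutrophil and B and plasma cell sums of all VSG livers lie above those of all Sham-WM livers, while sinusoidal endothelium, stellate cell and bile duct cell sums overlap.

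Neutrophil transcripts were scarce in Sham-WM. Without Lcn2, the summed level of the markers was 1207, 536, 164 and 47.2 CPM in VSG, 6.17, 4.25, 6.48 and 4.39 CPM in Sham-WM and 3.74, 32.6, 4.22 and 5.14 CPM in Sham-Ad lib. All 14 members tested passed as higher, but only 3 of them, Csf3r, Fpr1 and Lcn2, had at least 10 counts in every library, and those 3 passed in the fit with that minimum. S100a9, a calcium-binding protein of granulocytes (chromosome 3 from 90692632 to 90695721, mm10), had 326, 132, 53.3 and 8.76 CPM in VSG and 1.07, 0.410, 0.459 and 0.507 CPM in Sham-WM. Animal 1F was the highest and 18F the lowest, and even the latter held 8.19 times the highest Sham-WM value (log2 fold change 7.71, SE 1.18, adjusted p = 0.00122 in edgeR). S100a9 did not reach 10 counts in every Sham-WM library and entered the test through the libraries in which it was high. The adjusted p of S100a9 is therefore not read as support. Its partner S100a8 rose by 7.17. Granule genes, which neutrophils transcribe as they mature in the marrow rather than in blood, were among them and were given by counts since Sham-WM was at or near 0. Ngp, neutrophilic granule protein, had 3780, 2084, 216 and 133 counts in VSG and 3, 0, 0 and 1 in Sham-WM. Camp, the cathelicidin, had 936, 408, 121 and 38 counts against 0 in all 4 Sham-WM libraries, and was at least 549.6-fold higher, measured against a floor of 3 counts over the group. Mpo, myeloperoxidase, had 1234, 865, 87 and 46 counts against 1, 0, 0 and 0, and Elane, neutrophil elastase, 575, 314, 96 and 19 against 6, 0, 1 and 2. Prtn3, a protease of the same granules, rose by 6.86. Ly6g, the surface marker of mature neutrophils, had 44, 15, 0 and 1 counts against 0 in every Sham-WM library and failed the filter on low counts. Camp, Mpo, Elane and Ly6g were chosen after their values were seen. With RUVs factors 6 members were called.

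An ETS core (GAGGAAG on either strand) is the sequence that PU.1, a master factor of myeloid cells, reads. It stands in 5 of 13 neutrophil promoters, S100a8, Mpo, Elane, Csf3r and Lcn2, in 3 of 9 Kupffer cell promoters, Cd5l, Marco and C1qc, and in 10.8% of all promoters searched, 13.7% of those of higher and 10.4% of those of lower genes. S100a8 and Elane are shown as a cytosolic and a granule gene, the second chosen after its values were seen, with the core in capitals. The windows are chr3:90668821-90668977 and chr10:79886062-79886246, both on the plus strand and shortened where an exon begins.
S100a8: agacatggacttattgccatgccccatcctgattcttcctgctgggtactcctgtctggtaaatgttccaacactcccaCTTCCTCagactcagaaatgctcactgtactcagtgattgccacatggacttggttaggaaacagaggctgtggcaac
Elane: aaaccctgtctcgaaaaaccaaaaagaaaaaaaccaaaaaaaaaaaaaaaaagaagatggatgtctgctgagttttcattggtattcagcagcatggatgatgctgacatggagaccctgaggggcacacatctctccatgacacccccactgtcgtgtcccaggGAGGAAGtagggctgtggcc

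B and plasma cell markers had sums of 322, 211, 137 and 81.2 CPM in VSG and 41.2, 15.97, 17.0 and 21.2 CPM in Sham-WM. Of 16 tested, 12 were higher, but only 5 had at least 10 counts in every library, and 4 of those 5 were called higher in the fit with that minimum. Genes of secreted antibody were among the higher ones: Ighg2b, a constant gene of IgG, had 27.3, 37.5, 15.6 and 5.69 CPM in VSG and 0.357, 0.461, 0.102 and 0.281 CPM in Sham-WM (log2 fold change 6.13, SE 0.98, adjusted p = 0.00144 in edgeR). Ighg2b had fewer than 10 counts in every Sham-WM library and entered the test through the libraries in which it was high. Its adjusted p is therefore not read as support. Jchain, which links antibody chains, had 16.3, 10.4, 8.66 and 5.12 CPM in VSG and 2.40, 0.512, 1.17 and 0.957 CPM in Sham-WM (log2 fold change 2.996, SE 0.52, adjusted p = 0.00205), and Igkc, the kappa light chain, rose by 3.51. Of surface B cell genes Cd79b passed (0.95), while Cd79a, Ms4a1 and Pax5 did not (0.64, 0.83 and 0.13). Immunoglobulin genes are near-identical copies, so their counts are uncertain. Of 8 T and NK cell markers 4 were higher, among them Nkg7 and Gzma (2.01 and 2.53). Only 1 of the 8 had at least 10 counts in every library, and it was not called in the fit with that minimum. Another 2 had fewer than 10 counts in every Sham-WM library, so the count of 4 is not read as a share. Without VSG library 1F 2 of the T and NK cell markers were called.

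None of 8 bile duct cell markers passed in either direction. Of 13 markers of sinusoidal endothelium 3 were lower, Kdr, the VEGF receptor, Bmp2 and Ptprb (-0.89, -0.94 and -0.83), with sums of 235 to 414 CPM in VSG and 314 to 470.3 CPM in Sham-WM. Calls in that list numbered 1 without VSG library 1F or Sham-WM library 9F and 7 without VSG library 18F, and Bmp2 and Ptprb kept theirs in 5 and 9 of the 12 fits that left out 1 library. Of 16 stellate cell and matrix genes 4 were lower, among them Reln and Hgf, the hepatocyte growth factor (-1.06 and -1.36), and Vim was higher, with 3 calls left without VSG library 1F or without Sham-WM library 9F or 15F. The collagens Col1a1, Col1a2 and Col3a1 had log2 fold changes of 0.35, 0.14 and -0.21 and did not pass. Of 8 red cell genes all 8 had a positive log2 fold change (median 1.04) and 1 was called higher, while the globin genes did not pass. That call was lost without VSG library 11F, and the list held 0 calls in the fit with at least 10 counts in every library. Adipoq, Lep, Plin1 and Retn, which define fat, were at or under the floor of 3 counts, as were 9 of 11 pancreas and 7 of 12 stomach and gut genes. Hepatocyte markers were mixed, Trf being higher and Alb and Cps1 lower of 10.

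Of 24 cell cycle genes 7 were higher and none lower. Among the 24, 2 had fewer than 10 counts in every Sham-WM library. Only 17 had at least 10 counts in every library, and 2 of these were called in the fit with that minimum. Top2a, a topoisomerase of dividing cells, had 11.7, 9.65, 1.43 and 2.16 CPM in VSG and 1.22, 0.717, 0.969 and 1.63 CPM in Sham-WM. High values were those of animals 1F and 8F, and the groups overlapped (log2 fold change 2.46, SE 0.64, adjusted p = 0.0148 in edgeR). Pcna and the replication helicase genes Mcm2 to Mcm7 did not pass. Without VSG library 1F, 2 calls were left. Ribosomal proteins were higher in 30 of 80 members and lower in 1, Rpl7l1, a paralog, with a median log2 fold change of 0.52. Rps12 had 294, 191, 415 and 159.7 CPM in VSG and 175, 157, 125 and 132 CPM in Sham-WM, overlapping at the lower end. This count moved more than any other, from 3 without Sham-WM library 15F to 62 without VSG library 18F, and was 0 with RUVs factors. Of 13 host genes of small nucleolar RNAs 7 were higher, and Gas5 rose by 0.99. Of 75 nuclear genes of oxidative phosphorylation, Atp5s was higher and Ndufs1 and Sdha were lower, calls that held in 12, 8 and 7 of the 12 fits that left out 1 library. The list held 1 call without VSG library 1F or Sham-WM library 9F, 6 without VSG library 18F and 13 without VSG library 8F. Ndufs1 overlaps Eef1b2 on the other strand, whose counts were 1.30 times its own.

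Chrna4, a subunit of the nicotinic acetylcholine receptor, had 23.4, 25.4, 23.0 and 23.2 CPM in Sham-WM, a narrow range, and 0.299, 1.07, 0.979 and 0.512 CPM in VSG (log2 fold change -5.04, SE 0.31, adjusted p = 3.7e-06 in edgeR). Tubb2a, a beta tubulin, had 15.95, 8.32, 8.21 and 6.996 CPM in VSG and 95.9, 108.7, 74.4 and 115.4 CPM in Sham-WM, with freely fed livers at 12.8, 28.1, 13.8 and 6.46 CPM. Every Sham-WM liver was above every VSG and freely fed liver for both genes. Atp2b2, a calcium pump, fell by -3.08, and Tff3, a trefoil peptide of mucous cells kept in a list of fetal and imprinted genes, rose by 4.08. Mup17, a major urinary protein with many close paralogs, rose by 4.36, with 210.3, 111.2, 2275 and 293 CPM in VSG and 59.4, 53.5, 21.8 and 5.85 CPM in Sham-WM.

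Where the freely fed shams lay differed between these groups of genes. A position of 0 was given to the Sham-WM mean and 1 to the VSG mean on the log2 CPM scale, for called members whose log2 CPM averaged at least 1. All 3 groups enter this measure, so it is a description and was not tested. For clock outputs, heat shock and core clock genes the median positions were 1.05, 1.03 and 0.93, so freely fed livers resembled VSG and Sham-WM was the group apart. Fatty acid synthesis enzymes had a median of 0.47 and acute phase proteins one of 0.44, with every called member of both between the groups. Summed fatty acid synthesis levels in animals 3F, 4F, 6F and 10F were close, at 2140, 2050, 1802 and 1936 CPM. Their acute phase sums were uneven, at 32667, 64242, 35434 and 77337 CPM, so that position averages unlike livers. Kupffer cell markers, at 0.13, neutrophil markers, at 0.09, and B and plasma cell markers, at 0.18, had median positions near Sham-WM, so by these medians VSG was the group apart. The medians came from 12, 6 and 5 called members. Animal 4F departed from the other freely fed livers. Its sums were 772 CPM for Kupffer cell, 32.6 CPM for neutrophil (without Lcn2) and 66.0 CPM for B and plasma cell markers. The highest Sham-WM sums were 456, 6.48 and 41.2 CPM, so these positions also average unlike livers. Cholesterol synthesis lay at 0.16 and folding in the endoplasmic reticulum at 0.83. Over all genes called higher, the Sham-Ad lib mean was between the groups for 83.4%, and over those called lower for 83.5%. Over all genes tested the share was 50.1%. Called genes were selected for a gap between VSG and Sham-WM, and a Sham-Ad lib mean falls inside a wide gap more often than inside a narrow one. The shares of called genes are therefore not read against that of all genes, and no conclusion is drawn from the difference.

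**Figure D5:**
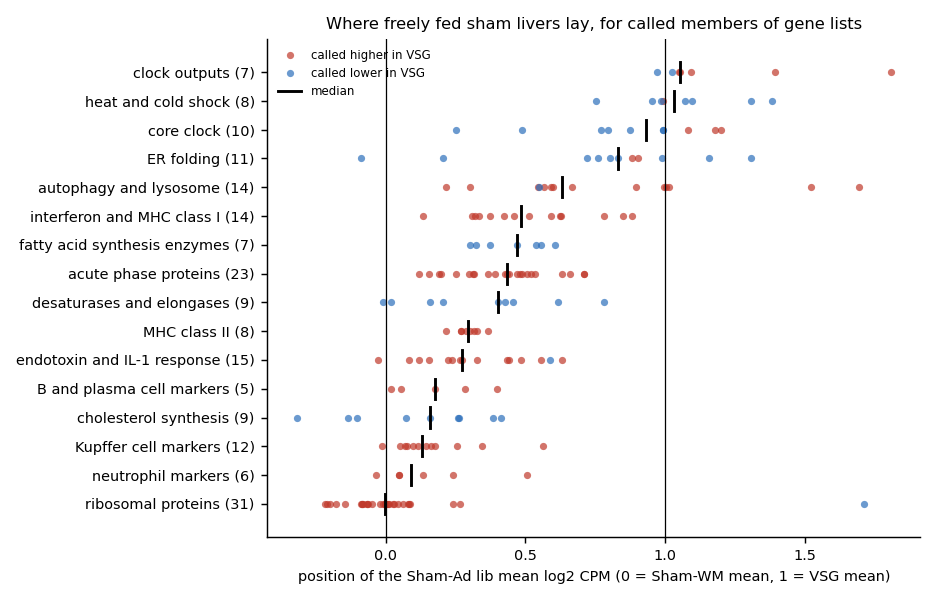
Each point is a called member of a gene list whose log2 CPM averaged at least 1, placed by its Sham-Ad lib mean log2 CPM, where 0 is the Sham-WM mean and 1 the VSG mean; bars are list medians and brackets give the members used. Clock and heat shock genes cluster near 1, fatty acid synthesis and acute phase genes between 0 and 1, and Kupffer cell, neutrophil and ribosomal protein genes near 0.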

How the data were processed

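Poly(A) RNA of mouse liver had been sequenced from 12 animals, of which 4 VSG and 4 Sham-WM libraries were compared. The deposited values are raw counts per Ensembl gene: the authors aligned reads to mm10 with TopHat2 2.1.1 and counted them with featureCounts. The strand setting of the counting and its annotation release are not given in the sources used here, so antisense and overlapping genes share some uncertainty; of 221 named genes, 77 overlap another gene and 21 of these one, on either strand, with a sizeable share of their counts. Some of these 21 carry no remark beside their values above. The counts of the overlapping gene on the other strand were 0.821 of those of Abcg8, 0.656 of Cebpd, 0.631 of Angptl8 and 0.584 of Irf7. They were 0.472 of those of Gas5, 0.307 of Acss2, 0.281 of Map1lc3b and 0.114 of Gcgr. Symbols and positions came from GENCODE M21, which 849 of 46078 genes did not match. All 37 mitochondrial genes were at 0.

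Genes were kept with filterByExpr (minimum count 10, minimum total 15). All 12 libraries entered edgeR 4.0.16 (R 4.3.3) with TMM factors and its quasi-likelihood test, the contrast was VSG minus Sham-WM, and adjusted p (Benjamini-Hochberg) was called at 0.05. CPM are TMM-normalised, with SDs over the 4 libraries of a group. A prior count of 2 went into log2 CPM, and the SE is the log2 fold change over the root of F. P-values measure the spread between these animals. Counts were made without molecular identifiers, so floors (3 counts) cover counting error only. Single values per library were compared by a two-sided exact permutation test. The fit was tested on simulated data.

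The comparison and the 69 gene lists were chosen with earlier results of these data known, so lists are described by counts without a test. Named were the 15 highest and 15 lowest called genes by log2 fold change (log2 CPM averaging at least 1, no overlap between groups, no predicted genes), up to 4 called members per list by size (or, where fewer than 2 were called, 2 by level) and 31 fixed genes. Of these, 10 genes are not reported here, and no others took their place. Other genes were chosen after their values were seen. Promoters are RefSeq windows (GRCm38.p6) for 10111 of 13054 genes tested, trimmed at GENCODE exons where printed.

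Alternatives were DESeq2 1.42.0 and its size factors, upper quartile factors, no filter, at least 10 counts in every library, the 8 libraries alone, grouping by the description field, leaving out each library, and 2 RUVs or RUVr factors, computed from their definitions with limma 3.58.1 and edgeR. Python 3.11.15 with pandas 2.3.3, scipy 1.17.1 and matplotlib 3.10.9 was used for tables and figures.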

Additional observations from a re-analysis of the deposited data

Results flagged for a closer look

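Of 448 values tested for a library apart (221 named genes and 3 library measures in both groups of 4), 31 had 1 library beyond Dixon's 95% limit for 4 samples, where chance alone gives about 1 in 20. In the VSG group, library 1F was the highest for Cd14 at 58.5 CPM, Tubb2a at 16.0 CPM, Slc16a1 at 38.4 CPM, Ccl6 at 41.0 CPM and Lgals3 at 27.9 CPM, and the lowest for Apoa5 at 738 CPM. VSG library 11F was the highest for Mup17 at 2275 CPM, Myc at 21.2 CPM and Igf1 at 687 CPM. VSG library 18F was the highest for Alb at 91193 CPM, Chac1 at 14.0 CPM and Ptprb at 52.2 CPM, and VSG library 8F for Derl3 at 34.3 CPM. Among Sham-WM livers, library 2F was the highest for Saa1 at 252 CPM, Saa2 at 73.2 CPM, Lcn2 at 46.0 CPM, S100a9 at 1.07 CPM, Mt2 at 4.28 CPM, Ccr2 at 2.19 CPM, Apoa4 at 359 CPM and Mup20 at 2576 CPM, and the lowest for Slc38a4 at 987 CPM. Sham-WM library 9F was the highest for Tff3 at 1.43 CPM, Chrna4 at 25.4 CPM, Pnpla2 at 56.9 CPM, Egr1 at 7.63 CPM and Sdha at 699.9 CPM. Sham-WM library 16F was the highest for Cyp2b9 at 395 CPM and the lowest for Ifi30 at 9.17 CPM and Vim at 12.6 CPM, and library 15F was the lowest for Nnmt at 73.8 CPM. Libraries 1F and 2F stood apart in 6 and 9 of these values, the latter with 5 genes of the acute phase, metallothionein and neutrophil lists on the high side of its group. The cause was not tested.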

How the results depend on the processing

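Of the 192 named genes called, 149 kept their call in each of the 12 fits that left out 1 library and 43 lost it in at least 1. Over these fits the calls ranged from 2196 to 3868 in all, from 1239 to 2146 higher and from 943 to 1722 lower, with the lowest without Sham-WM library 15F or 16F. DESeq2, its size factors, upper quartile factors, no filter, at least 10 counts in every library and a fit of the 8 libraries alone gave between 2670 and 4089 calls, and no named gene changed sign under them. The 2 RUVs factors left 524 calls (275 higher and 249 lower, 464 of the 524 shared with the main calls), and the 2 RUVr factors gave 5513, 2652 of them lower. The cause was not tested. With RUVs factors the sign turned for 10 named genes, at log2 fold changes of -0.021 for Apoa4, 0.18 for Cd36, -0.24 for Gstp2, -0.053 for Socs3, -0.38 for Scd2, -0.038 for Trf, -0.24 for Mki67, -0.10 for Spp1, -0.19 for Atp4a and -0.024 for Alas2. With RUVr factors it turned for Cela1 (-0.13) and Cyp7a1 (-0.012). Leaving out 1 library turned the sign of 7 genes that had no call, whose values ranged from -0.10 to 0.28 for Apoa4, from -0.15 to 0.036 for Cd36, from -0.44 to 0.23 for Cela1, from -0.065 to 0.23 for Cpt1a, from -0.12 to 0.23 for Cyp7a1, from -0.049 to 0.59 for Pck1 and from -0.14 to 0.031 for Pparg. The description field exchanges libraries between groups, and with it the counts of all, higher and lower genes called were 0, 0 and 0, with 158 at an unadjusted p under 0.05 in edgeR. The log2 fold change of 83 named genes then took the other sign, with none passing. It was 0.070 for Acly, 0.022 for Akr1d1, 0.026 for Apoa5, 0.51 for Bmp2, 0.0047 for Bmp6, 0.14 for Cd4, 0.25 for Creld2, 0.045 for Crem, 1.14 for Cyp26a1, 0.76 for Cyp26b1, 0.18 for Cyp2c68, 0.064 for Dusp1, 0.10 for Elovl6, 0.027 for Fabp2 and 0.23 for Fasn. It was 0.016 for Fgfr4, 0.23 for Fkbp4, 0.58 for G6pc, 0.038 for Gclc, 0.29 for Glul, 0.21 for Gulo, 0.19 for Hsd17b7, 0.51 for Hsp90aa1, 0.15 for Hspa5, 0.34 for Hsph1, 0.16 for Hyou1, 0.083 for Igf1 and 0.063 for Igfbp1. It was 0.11 for Inhba, 0.17 for Kdr, 0.026 for Lss, 0.10 for Me1, 0.21 for Per2, 0.047 for Pgd, 0.037 for Pmvk, 0.083 for Pparg, 0.15 for Ptprb, 0.29 for Stip1, 0.29 for Thrsp and 0.019 for Tkfc. It was -0.27 for Agxt, -0.39 for Alas2, -0.10 for Apoa4, -0.86 for Atp4a, -0.0027 for Atp5s, -0.19 for Bcl6, -0.28 for C9, -0.13 for Ccr2, -0.030 for Chac1, -0.16 for Ciart, -0.31 for Cpt1a, -1.65 for Cxcl1, -0.051 for Cyp17a1 and -0.16 for Cys1. It was -0.068 for Dbp, -1.76 for Derl3, -1.79 for Egr1, -0.30 for Fkbp5, -0.31 for Gstp2, -0.36 for Hbb-bs, -0.082 for Hpx, -0.42 for Ighg2b, -1.15 for Junb, -0.048 for Klf9, -0.045 for Krt18, -0.34 for Lipe, -0.0041 for Map1lc3b and -0.17 for Mki67. It was -0.24 for Nnmt, -0.12 for Nr1d1, -0.022 for Oas1a, -0.067 for Pck2, -0.12 for Plin3, -0.10 for Pnpla2, -0.17 for Por, -0.57 for Sdsl, -0.42 for Slc23a2, -0.18 for Slc2a5, -0.36 for Slc38a3, -0.27 for Slc38a4, -0.87 for Socs3 and -0.99 for Tff3. It was -0.061 for Vim. No paired analysis was possible because the groups share no replicate numbers. Neutrophil genes with fewer than 10 counts in a Sham-WM library left the test at that minimum, so 3 of the 14 were tested and called there. Depth limits the genes that Sham-WM held at a few counts, whose ratios are bounds or counts only.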

Other observations

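Of 37 cytochrome P450 genes and their receptors, 5 were lower, among them Cyp2b9, with 1.91, 7.56, 28.2 and 47.8 CPM in VSG and 185, 168, 205 and 395 CPM in Sham-WM, and Por, the reductase that serves them, was higher. No call of this list was left without VSG library 8F. Of 39 conjugation enzymes 6 were higher, Nnmt and Gstp2 among them, and 5 were lower, Gsta2 and Gsta3 among them (log2 fold changes 1.279, 1.44, -1.42 and -1.05), and 3 calls were left without Sham-WM library 16F. Of 21 antioxidant genes 3 were higher and 2 lower. Genes with female-biased expression in liver were lower in 6 of 16 members and higher in 1, Cyp17a1 (1.23), with 4 calls left without VSG library 1F or 8F. Of 24 male-biased genes 2 were higher, Mup20 among them, and 1, Elovl3, was lower. In the growth hormone axis Bcl6, a repressor of female-biased genes, had 72.4, 88.7, 15.2 and 12.7 CPM in VSG and 11.3, 6.45, 10.5 and 9.34 CPM in Sham-WM, high in animals 1F and 8F alone (log2 fold change 2.33, SE 0.58, adjusted p = 0.0119 in edgeR). Igf1, the growth factor itself, did not pass (-0.32 (adjusted p = 0.139) in edgeR).

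Of 27 secreted hepatic hormones 7 were lower and 2 higher. Angptl8, a feeding-induced inhibitor of lipoprotein lipase, and Inhba, a chain of activin, fell by log2 fold changes of -1.71 and -1.53. Fgf21, a hormone of fasting and protein restriction, had 0.657, 1.276, 0.377 and 0.683 CPM in VSG and 1.38, 2.56, 1.53 and 0.957 CPM in Sham-WM and did not pass (-1.06 (adjusted p = 0.107) in edgeR). Of 17 genes of the integrated stress response 4 were higher, Chac1 and Trib3 among them (1.84 and 1.89), and none was lower, with 1 call left without Sham-WM library 16F. Of 20 immediate early genes 7 were higher, Egr1 and Junb among them (2.41 and 2.01), and Dusp1 was lower, with 2 calls left without Sham-WM library 16F. Junb overlaps Prdx2 on the other strand, whose counts were 5.91 times its own. Zonation markers were nearly level: 2 of 21 pericentral and Wnt genes were higher, Slc1a2 and Rhbg, and 2 of 16 periportal genes, Cps1 and Etnppl, were lower. Glul, glutamine synthetase of the innermost hepatocytes, had a log2 fold change of -0.18 (adjusted p = 0.431) in edgeR and did not pass.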
